A study of Homo sapiens with 6 samples.

Results

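TMEM is a placeholder family name given to genes whose predicted protein crosses a membrane and whose function was not known when the gene was named. The members are therefore tied together by a name and not by ancestry or by a shared pathway. They include ion channels, enzymes, assembly factors of mitochondria, and components of the nuclear envelope and of the primary cilium. Others are proteins of the endoplasmic reticulum (ER), Golgi apparatus and lysosome. Most mRNAs that code for membrane proteins are translated on ribosomes at the ER. Staufen1 (Stau1) binds double-stranded stretches of RNA, associates with ribosomes and with the rough ER, and takes part in the transport, translation and decay of the mRNAs it binds. The question addressed here was which TMEM mRNAs were more abundant in Stau1 immunoprecipitates (IPs) than in control IPs of mitotic cells.

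The TMEM transcripts were all targets of the array whose gene symbol is TMEM followed by a digit, which gave 216 of 37879 targets, each with a symbol of its own. HEK293T cells, an established human embryonic kidney line, were transfected with a plasmid coding for Stau155-FLAG, the major isoform with an epitope tag, or with the empty vector. Both groups were blocked in prometaphase with nocodazole, a drug that depolymerizes microtubules, at 50 ng/ml for 15 h per the labels (the methods give a longer block for this line), and both were precipitated with an anti-FLAG antibody. RNA of 3 control IPs and 3 Stau1 IPs was read on 6 arrays of the Illumina HumanWG-6 BeadChip type, 1 array per IP. The tagged protein was expressed from a transfected plasmid in addition to the endogenous one, the input RNA was not analysed here, and the labels do not say whether the 3 replicates of a group came from separate cultures, so that p-values measure only the spread between these arrays.

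The arrays labelled control IP 2 and Stau1 IP 2 stood apart from the others of their groups. Log2 signals of Stau1 IP 1 and Stau1 IP 3 had a Pearson correlation of 0.995 over the 9884 targets that were detected throughout. Between Stau1 IP 2 and these arrays it was 0.937 and 0.939, below its 0.971 with control IP 3. Control IP 2 correlated at 0.982 and 0.983 with Stau1 IP 1 and 3, and at 0.975 and 0.980 with control IP 1 and 3. Whether the labels of these 2 arrays were exchanged was not tested. They were kept in the groups that the labels give, each comparison was made with and without them, and their values are given singly. STAU1, the gene of the tagged protein, had signals of 2499, 3246 and 2758 on control IPs 1 to 3 and of 2845, 1857 and 3130 on Stau1 IPs 1 to 3, so the groups overlapped. Of 8 genes that mark prometaphase, 7 were detected on all 6 arrays, as were 5 of 6 markers of the line. Without the arrays numbered 2, 7 of the 8 prometaphase markers were below 0 in log2 difference between Stau1 IP and control IP, 2 of them at an adjusted p under 0.05 (CCNB1 at -1.02, adjusted p = 0.019, and CENPE at -0.93, adjusted p = 0.0233), and the summed signal of the 8 was 29662 to 34478 in control IPs and 28100 to 35157 in Stau1 IPs. All 6 markers of the line were below 0 as well, 0 of them at the adjusted threshold, with a summed signal of 9982 to 13730 in control IPs and 9971 to 11070 in Stau1 IPs. The part of these differences in the results below was not tested. Of 7 markers of other cell types, 6 were detected on no array and COL1A1, a collagen gene of fibroblasts, on 5, and the summed signal of the 7 was 599 to 731 in control IPs and 621 to 696 in Stau1 IPs.

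TMEM transcripts were detected more often than the array as a whole. A target counted as detected at a detection p-value under 0.05, which ranks it among the negative controls of its array. Of the 216 TMEM targets, 133 (61.6%) were detected on all 6 arrays, against 26.1% of all targets. A further 28 were detected on 1 to 5 arrays, and 55 (25.5%) on none, against 59.5% of all targets. The mean signal of the 133 targets ran from 113 to 7168, with a median of 555, while the median of a whole array was between 87.9 and 102. Differences among the 55 undetected members are differences near background and are not described.

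The symbols are those of the array design, and many of these genes have since been renamed. In RefSeq, 161 of the 216 symbols are current and 55 are older names of genes that now carry another symbol. Several TMEM labels therefore stand for genes with known work: TMEM85 and TMEM93 are EMC4 and EMC6, subunits of the ER membrane protein complex, TMEM49 is VMP1, TMEM48 is the nucleoporin gene NDC1, and TMEM103 is ELP6, a subunit of the Elongator complex, which modifies transfer RNAs. RefSeq lists 209 members as protein coding, 6 as long noncoding RNAs and 1 as a pseudogene. Of the 6 noncoding transcripts, 5 were detected on no array and 0 on all 6. Of the 199 members with a cellular component annotation in the deposited table, all had a term that mentions a membrane.

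By the labels, 0 TMEM transcripts passed the threshold of the methods, a fold above 2.5 with an unadjusted p under 0.05. Among all targets 10 (0.0264%) passed it as higher in the Stau1 IP and 13 (0.0343%) as lower, and with Benjamini-Hochberg adjustment over all targets limma called 0 TMEM targets and 0 targets at all. The lowest adjusted p of a TMEM target was 0.178, for TMEM178, which was lower in the Stau1 IP and was named after its values were seen. Its log2 difference was -0.58 ± 0.08 (SE), with all 3 Stau1 IPs below all 3 control IPs in normalized signal. Without the arrays numbered 2 it was -0.52 ± 0.10 (adjusted p = 0.054). At an unadjusted p under 0.05, 29 TMEM targets (13.4%) were higher in the Stau1 IP, where 4.39% of all targets were, and 11 (5.09%) were lower, where 5.15% of all targets were. Among the targets detected on all 6 arrays, where 0.0708% passed the threshold of the methods as higher and 0.0911% as lower, 26 of the 133 TMEM targets (19.5%) were higher at an unadjusted p under 0.05, against 10.5% of such targets, and 9 (6.77%) were lower, against 12.2%. All 3 Stau1 IPs lay above all 3 control IPs for 28 TMEM targets (13%, against 6.71% of all targets) and below them for 14 (6.48%, against 7.8%). Restricted to targets detected on all 6 arrays these counts were 23 of 133 (17.3%, against 10.2%) and 10 (7.52%, against 12.7%). The median log2 difference, Stau1 IP minus control IP, of the 133 TMEM transcripts was 0.15, with 87 of 133 (65.4%) above 0, and for all 9884 targets detected on all arrays it was 0.00, with 50.0% above 0. Single TMEM transcripts among the 133 ran from -0.60 to 1.37.

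Without the arrays numbered 2 of both groups, 9 TMEM transcripts passed the threshold of the methods as higher in Stau1 IP 1 and 3 than in control IP 1 and 3 (4.17%, against 1.19% of all targets), and 0 passed it as lower (against 0.288%). They were TMEM118, TMEM19, TMEM103, TMEM91, TMEM109, TMEM191B, TMEM201, TMEM129 and TMEM194, and 7 of them were detected on all 6 arrays. Among targets detected on all arrays, the TMEM share was 7 of 133 (5.26%) and that of all targets 3.23%. At an adjusted p under 0.05, 28 TMEM targets (13%) were higher, against 3.48% of all targets, and 5 (2.31%) were lower, against 2.77%. At an unadjusted p under 0.05, 54 (25%) were higher, against 8.99%, and 19 (8.8%) were lower, against 9.92%. Since TMEM targets were detected more often than others, the same shares were taken over the targets detected on all 6 arrays. There, 23 of 133 (17.3%) were higher at the adjusted threshold, against 9.36%, and 5 (3.76%) were lower, against 8.88%, and at the unadjusted p 45 (33.8%) were higher, against 21.4%, and 17 (12.8%) were lower, against 27.1%. The median log2 difference of the 133 transcripts was 0.16, with 81 (60.9%) above 0, against a median of -0.08 and 43.9% for all targets. Leaving out 1 of the 4 arrays moved these counts, with the lone array of a group then assumed to vary like the pair of the other. The adjusted calls became 0 higher and 0 lower without Stau1 IP 1 or without Stau1 IP 3, 39 and 6 without control IP 1, and 54 and 17 without control IP 3. The 9 transcripts past the threshold of the methods became 10 without Stau1 IP 1 or without Stau1 IP 3, 9 without control IP 1 and 15 without control IP 3.

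**Figure D1:**
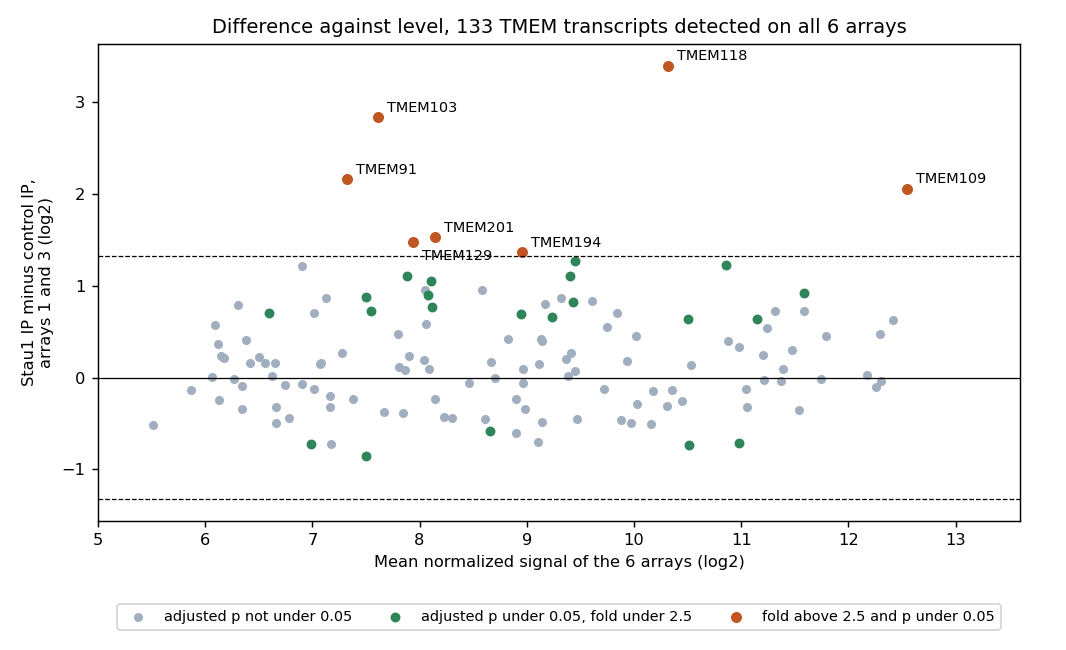
Log2 difference between Stau1 IP and control IP (arrays 1 and 3 of each group) against the mean log2 normalized signal of the 6 arrays, 1 point per TMEM transcript detected on all 6 arrays, with dashed lines at a fold of 2.5 in either direction. The 7 transcripts past the threshold run from TMEM91, the dimmest of them, to TMEM109, which has the highest level of the 133, and no transcript lies below the lower line.

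TMEM118, now RNFT2, codes for a membrane protein with a RING domain, the type of domain that many ubiquitin ligases carry. Its signal was 372, 3363 and 557 on control IPs 1 to 3 and 4193, 379.8 and 5087 on Stau1 IPs 1 to 3. Stau1 IP 1 and 3 and control IP 2 were thus high and the other 3 arrays low, and the labelled groups overlapped. Without the arrays numbered 2 the log2 difference was 3.40 ± 0.21 (SE, 2 arrays against 2, adjusted p = 0.0062), a 10.6-fold difference and the largest of the TMEM transcripts. By the labels the difference was 1.29 ± 1.23 (SE, n = 3 per group, adjusted p = 0.867).

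TMEM103 (ELP6) and TMEM91 showed the same order of arrays at a lower level. The signal of TMEM103 was 123, 409 and 155 on the control IPs and 714, 145 and 714 on the Stau1 IPs, with a log2 difference of 2.84 ± 0.21 (SE, adjusted p = 0.0082) without the arrays numbered 2 and of 1.37 ± 0.87 (adjusted p = 0.746) by the labels. That of TMEM91 was 122, 357 and 149 on the control IPs and 430.5, 149 and 492 on the Stau1 IPs, with log2 differences of 2.16 ± 0.19 (adjusted p = 0.0118) and 1.03 ± 0.67 (adjusted p = 0.756). For both transcripts Stau1 IP 2 sat with control IP 1 and 3, and control IP 2 sat between the other arrays.

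TMEM109, also known as mitsugumin-23, is a protein of ER and nuclear membranes, and its mRNA had the highest mean signal of all 216 TMEM targets. Its signal was 2819, 6355 and 3621 on the control IPs and 12602, 3829 and 13785 on the Stau1 IPs. Both Stau1 IP 1 and 3 lay above all 4 other arrays, and Stau1 IP 2 lay within the range of the control IPs. The log2 difference was 2.06 ± 0.13 (SE, adjusted p = 0.0066), or 4.17-fold, without the arrays numbered 2, and 1.16 ± 0.56 (adjusted p = 0.616) by the labels. TMEM109 and TMEM118 passed the threshold on the 4 arrays under each alternative processing that was run, which was not so for the other 7.

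A pair of transcripts past the threshold code for proteins of the inner nuclear membrane, which is taken apart when cells reach prometaphase. TMEM201, known as SAMP1, had signals of 202, 433 and 229 on the control IPs and 538, 279.7 and 679 on the Stau1 IPs, and a log2 difference of 1.53 ± 0.13 (SE, adjusted p = 0.0116) without the arrays numbered 2. TMEM194, now NEMP1, had signals of 382, 903 and 407 on the control IPs and 1065, 209.8 and 1133 on the Stau1 IPs, and a log2 difference of 1.36 ± 0.10 (adjusted p = 0.0077). Stau1 IP 2 was the lowest of the 6 arrays for TMEM194 and lay between control IP 3 and control IP 2 for TMEM201. By the labels the differences were 0.96 ± 0.34 (adjusted p = 0.444) for TMEM201 and 0.25 ± 0.69 (adjusted p = 0.969) for TMEM194. Neither passed without background correction, with neqc or with the rebuilt transformation of the methods.

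TMEM129 codes for an ubiquitin ligase of the ER membrane that acts in the degradation of ER proteins. Its signal was 187, 356 and 224 on the control IPs and 519, 237 and 579.8 on the Stau1 IPs, and its log2 difference was 1.48 ± 0.14 (SE, adjusted p = 0.0126) without the arrays numbered 2 and 0.94 ± 0.33 (adjusted p = 0.436) by the labels. It is one of the transcripts nearest the threshold: leaving out control IP 1 as well took it to 1.32, just under a fold of 2.5.

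TMEM19 and TMEM191B were dim. TMEM19 had signals of 64.9, 252 and 102 on the control IPs and 344, 102 and 322 on the Stau1 IPs, and was detected on 3 arrays. Since it was not well above background on control IP 1 and 3, its difference is a bound, and it was at least 6.60-fold higher on Stau1 IP 1 and 3 (adjusted p = 0.0152). By the labels its log2 difference was 1.23 ± 1.01 (SE, 95% interval -1.23 to 3.70, adjusted p = 0.831). TMEM191B belongs to a group of closely similar gene copies, whose signals the probes may not separate. It had signals of 113, 173 and 112 on the control IPs and 250.3, 136 and 253 on the Stau1 IPs, and was detected on Stau1 IP 1 and 3 alone. Its own control signals, though not detected, were above the lowest detected signal, so its bound was set against them and equals the fitted fold. That fitted fold was 2.97 on Stau1 IP 1 and 3 (log2 difference 1.57, 95% interval 1.31 to 1.83, adjusted p = 0.0067). By the labels the fitted fold was 2.03 on the same terms (log2 difference 1.02, 95% interval 0.22 to 1.83, adjusted p = 0.401). TMEM191B was the one TMEM target with a fold above 2 and an unadjusted p under 0.05 in that comparison.

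**Figure D2:**
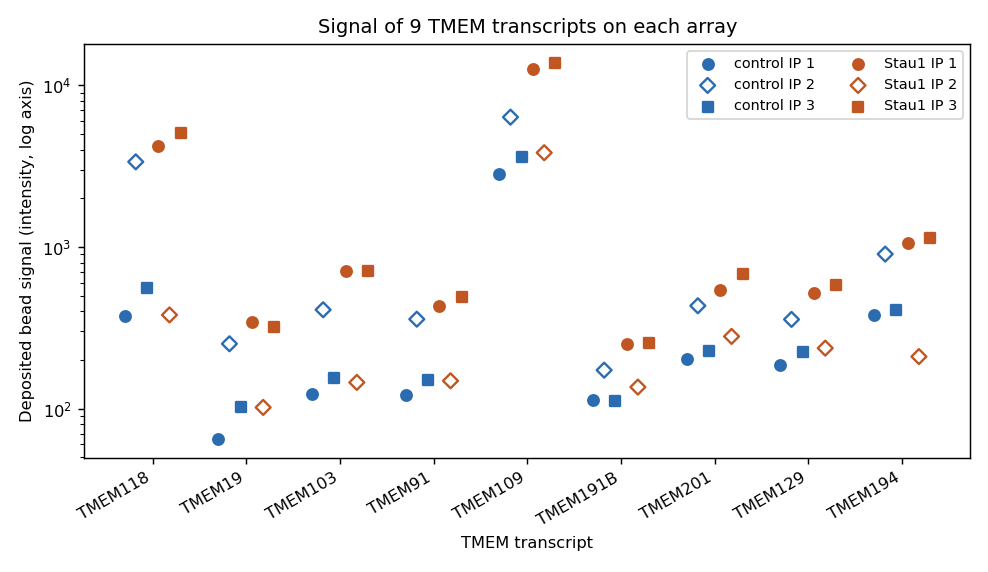
Deposited signal (log axis) of the 9 TMEM transcripts past the threshold without the arrays numbered 2, on each of the 6 arrays, with control IPs in blue, Stau1 IPs in orange and the arrays numbered 2 as open diamonds. For all 9, control IP 2 lies above control IP 1 and 3, and Stau1 IP 2 lies below Stau1 IP 1 and 3.

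The place of the arrays numbered 2 was expressed on the log2 scale between the mean of control IP 1 and 3, set to 0, and the mean of Stau1 IP 1 and 3, set to 1. Neither array was used in the fit that selected the 9 transcripts. Over these 9, the median position of control IP 2 was 0.65 (range 0.40 to 0.83) and that of Stau1 IP 2 was 0.10 (range -0.70 to 0.48). Control IP 2 was nearer to Stau1 IP 1 and 3 for 6 of 9, Stau1 IP 2 was nearer to control IP 1 and 3 for 9 of 9, and control IP 2 was above Stau1 IP 2 for 9 of 9. Among all 452 targets past the threshold as higher, the shares were 74.6% for control IP 2 and 93.1% for Stau1 IP 2. The pattern was less uniform over the 28 TMEM transcripts higher at an adjusted p under 0.05, with 11 for control IP 2, 21 for Stau1 IP 2 and 9 for both.

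A group of transcripts among the 28 kept Stau1 IP 2 on the side of the other Stau1 IPs. These names, like all other names at the adjusted threshold outside the 9 and the lists below, were chosen after their values were seen. TMEM149, now IGFLR1, had signals of 220.0, 366 and 258 on the control IPs and 456, 347 and 486 on the Stau1 IPs, a log2 difference of 0.90 ± 0.12 (SE, adjusted p = 0.0217) without the arrays numbered 2 and a position of 1.02 for Stau1 IP 2. TMEM104, now SLC38A12, had signals of 194, 325 and 226 on the control IPs and 412, 293 and 503 on the Stau1 IPs, with a log2 difference of 1.11 ± 0.13 (adjusted p = 0.0181) and a position of 0.79. In normalized signal all 3 Stau1 IPs of TMEM149 and TMEM104 lay above all 3 control IPs. By the labels their differences were 0.78 ± 0.13 (adjusted p = 0.206) and 0.89 ± 0.16 (adjusted p = 0.211), with unadjusted p of 0.00106 and 0.00149.

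TMEM167B and TMEM64, also at the adjusted threshold, lost most or all of their difference by the labels. TMEM167B, a small protein of the secretory pathway, had signals of 236, 485 and 288 on the control IPs and 542, 172 and 601 on the Stau1 IPs, and log2 differences of 1.05 ± 0.13 (adjusted p = 0.0179) without the arrays numbered 2 and 0.26 ± 0.50 (adjusted p = 0.951) by the labels. TMEM64 had signals of 145, 235 and 161 on the control IPs and 268, 103 and 270.0 on the Stau1 IPs, with 0.85 ± 0.12 (adjusted p = 0.0255) and -0.09 ± 0.66 (adjusted p = 0.99). For both, Stau1 IP 2 was the lowest of the 6 arrays. Of the other transcripts higher at the adjusted threshold, TMEM198 had a log2 difference of 1.27, TMEM101 of 1.23, TMEM150A of 1.11, TMEM184B of 0.92, TMEM18 of 0.88 and TMEM8, now PGAP6, of 0.83. TMEM41A, TMEM159, TMEM132A, TMEM185B and TMEM200C were at 0.76, 0.70, 0.70, 0.66 and 0.63. By the labels TMEM198 was at 0.91, TMEM101 at 0.74, TMEM150A at 0.81, TMEM184B at 0.52 and TMEM18 at 0.46. TMEM159, TMEM132A, TMEM185B and TMEM200C were at 0.48, 0.46, 0.46 and 0.32 by the labels, and 0 TMEM targets passed the adjusted threshold there. In normalized signal all 3 Stau1 IPs of TMEM198, TMEM159 and TMEM185B lay above all 3 control IPs. TMEM159 is now LDAF1, which acts in the assembly of lipid droplets. TMEM150A, whose labelled groups overlapped in normalized signal, takes part in phosphoinositide synthesis at the plasma membrane. TMEM200C was not well above background on control IP 1 and 3, and its difference, 1.55-fold, was set against its own control signals and equals the fitted fold (log2 difference 0.63, 95% interval 0.34 to 0.92).

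The 5 transcripts lower at the adjusted threshold differed by less than 2-fold, and their names were chosen after their values were seen. TMEM31 had signals of 245, 223 and 293 on the control IPs and 198, 373 and 217 on the Stau1 IPs, and fell by 0.85 on the log2 scale (SE 0.12, adjusted p = 0.0249). TMEM5, now RXYLT1, an enzyme that builds the glycan of dystroglycan, had signals of 1949, 1651 and 1672 on the control IPs and 1258, 1532 and 1325 on the Stau1 IPs, and fell by 0.74 (SE 0.14, adjusted p = 0.0477). TMEM49 (VMP1), which is needed to form autophagosomes, had signals of 2608, 2423 and 2381 on the control IPs and 1811, 1791 and 1693 on the Stau1 IPs, and fell by 0.72 (SE 0.14, adjusted p = 0.0491). TMEM49 was the only one of the 5 whose normalized signals did not overlap between the labelled groups, with a log2 difference by the labels of -0.56 ± 0.13 (adjusted p = 0.269). TMEM70, an assembly factor of mitochondrial ATP synthase, had signals of 213, 212 and 195 on the control IPs and 166, 198 and 181 on the Stau1 IPs, and fell by 0.72 (SE 0.12, adjusted p = 0.0397). TMEM108 had signals of 472, 576 and 471 on the control IPs and 384, 550.1 and 424 on the Stau1 IPs, and fell by 0.58 (SE 0.10, adjusted p = 0.0398). By the labels the other 4 were at -0.02 ± 0.51 (adjusted p = 0.997) for TMEM31, -0.44 ± 0.20 (adjusted p = 0.579) for TMEM5, -0.29 ± 0.28 (adjusted p = 0.867) for TMEM70 and -0.24 ± 0.28 (adjusted p = 0.903) for TMEM108. With median centring, or with no normalization between arrays, 0 TMEM targets were lower at the adjusted threshold. The count was also 0 with shifted log2 values, with neqc and with the methods' t-test. It was 2 at an offset of 50, with the rebuilt transformation and with the replicate number as a block. With eBayes trend it was 3, with a filter on detection 6 and without background correction 7.

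**Figure D3:**
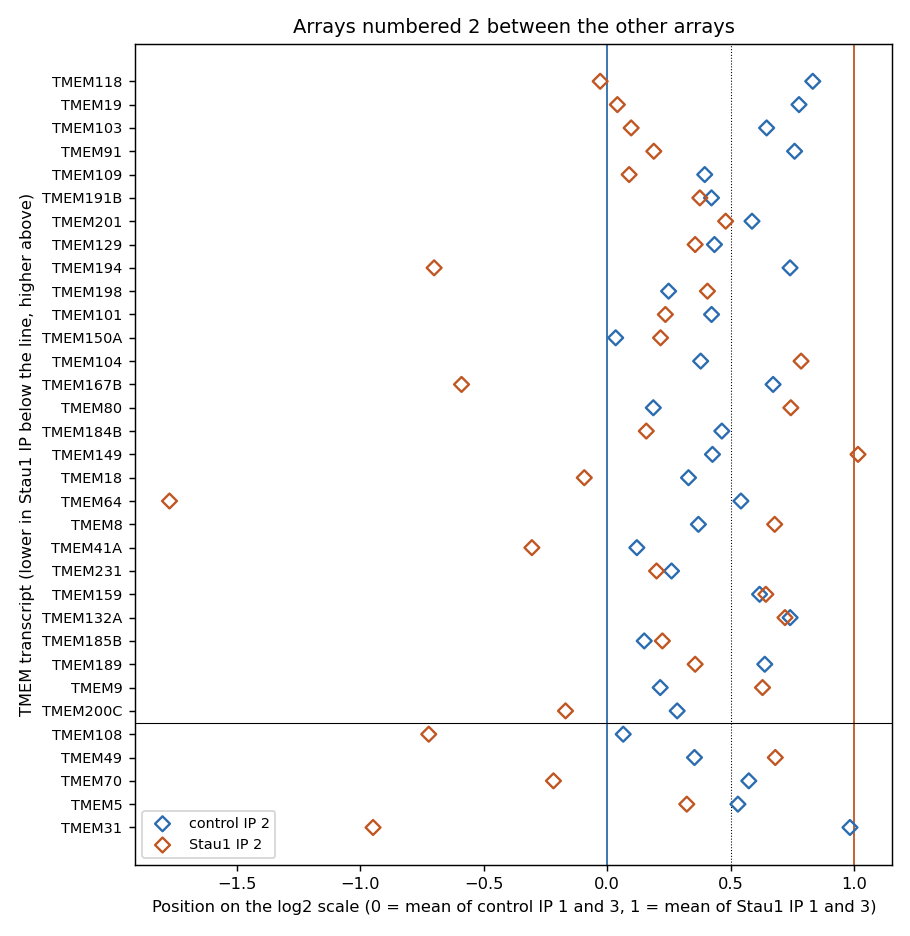
Position of control IP 2 (blue) and Stau1 IP 2 (orange) for each of the 33 TMEM transcripts at an adjusted p under 0.05 without these arrays, on a log2 scale where 0 is the mean of control IP 1 and 3 and 1 the mean of Stau1 IP 1 and 3, with the 28 higher transcripts above the line and the 5 lower ones below it. For the 9 transcripts with the largest differences, at the top, Stau1 IP 2 lies to the left of control IP 2, and further down the order of the arrays varies.

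The members were then described by role, for which 9 lists were drawn up with earlier results of these data known. Members of no list made up 136 of the 216 targets, of which 70 were detected on all 6 arrays, 19 were higher at the adjusted threshold and 2 were lower. All values that follow are log2 differences without the arrays numbered 2, with the SE, and the medians are over the members detected on all 6 arrays, to be read against -0.08 for all targets and 0.16 for all TMEM transcripts. Counts of higher and lower members are at the adjusted threshold and stand beside 3.48% and 2.77% of all targets, or 9.36% and 8.88% of the targets detected on all 6 arrays. By the labels, 0 members passed the adjusted threshold. The medians were then 0.22 for secretory pathway, -0.10 for ER membrane protein complex, -0.23 for nuclear envelope and 0.22 for ciliary transition zone. They were -0.01 for mitochondrial, 0.36 for lysosome and endosome, -0.32 for autophagy, 0.13 for lipid and glycan enzymes and 0.16 for ion channels.

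For proteins that build or move through the ER and Golgi, the secretory pathway list had 16 members on the array, 14 of them detected on all arrays, with a median of 0.26. Its higher members were TMEM109, TMEM129 and TMEM167B, and 0 were lower at the adjusted threshold. Its other bright members were TMEM115, a Golgi protein, at 0.48 ± 0.19 (adjusted p = 0.261), TMEM147, which sits near the ER translocon, at 0.46 ± 0.14 (adjusted p = 0.16) and TMEM87A of the Golgi at 0.54 ± 0.29 (adjusted p = 0.454). The ER membrane protein complex, which inserts membrane proteins into the ER, was represented by TMEM85 (EMC4) at -0.02 ± 0.17 (adjusted p = 0.988) and TMEM93 (EMC6) at -0.31 ± 0.14 (adjusted p = 0.349). TMEM85 was bright on all arrays, at 3763, 3776 and 2988 on the control IPs and 3632, 3398 and 3466 on the Stau1 IPs, and its 95% interval of -0.44 to 0.41 does not reach a fold of 2.5.

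Of 7 nuclear envelope transcripts, all detected on all arrays, TMEM201 and TMEM194 were higher and 0 were lower, and the median was -0.01. The other 5 ran from -0.43 to 0.07, and 0 of them passed the adjusted threshold. TMEM43, known as LUMA, was at -0.03 ± 0.11 (adjusted p = 0.949), TMEM48 (NDC1), which anchors the nuclear pore, at -0.06 ± 0.15 (adjusted p = 0.93) and TMEM209 at 0.07 ± 0.21 (adjusted p = 0.937). Among 7 transcripts of the ciliary transition zone, the gate at the base of the primary cilium, 5 were detected on all arrays with a median of 0.36, 2 were higher and 0 were lower. TMEM231 was at 0.72 ± 0.10 (adjusted p = 0.0227) and TMEM80 at 1.03 ± 0.16 (adjusted p = 0.03), the latter with signals of 188, 292 and 236 on the control IPs and 423, 279 and 459 on the Stau1 IPs, although it counted as detected on only 4 arrays. TMEM216 at 0.83 ± 0.18 (adjusted p = 0.0637), TMEM17 at 0.24 ± 0.20 (adjusted p = 0.678) and TMEM138 at -0.45 ± 0.10 (adjusted p = 0.0784) did not pass.

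The mitochondrial list had the lowest median of the 9, -0.44 over 9 detected members of 10, with 3 of the 9 above 0. TMEM70 was its one member past the adjusted threshold, as lower. TMEM126B, an assembly factor of respiratory complex I, was at -0.50 ± 0.21 (adjusted p = 0.299) and TMEM14C, which takes part in heme synthesis, at -0.12 ± 0.20 (adjusted p = 0.879). TMEM177, which acts in the assembly of cytochrome c oxidase, was at 0.40 ± 0.11 (adjusted p = 0.112) and TMEM160 at 0.73 ± 0.15 (adjusted p = 0.0593). By the labels the median of this list was -0.01, against 0.00 for all targets.

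The lysosome and endosome list had the highest median, 0.55 over 4 detected members of 5, all 4 above 0. The remaining member, TMEM106B, was detected on 5 arrays and went the other way, at -0.44 ± 0.10 (adjusted p = 0.0785). By the labels it was at -0.75 ± 0.21 (adjusted p = 0.324). TMEM9, which acts in endosomes and lysosomes, was the one past the adjusted threshold, at 0.64 ± 0.11 (adjusted p = 0.0389), with signals of 1659, 2277 and 1883 on the control IPs and 3039, 2371 and 3029 on the Stau1 IPs, so that every Stau1 IP was above every control IP. TMEM127 was at 0.87 ± 0.32 (adjusted p = 0.23), TMEM9B at 0.45 ± 0.16 (adjusted p = 0.22) and the lysosomal marker TMEM192 at 0.27 ± 0.11 (adjusted p = 0.278). Among 7 transcripts of autophagy and innate immunity, 5 were detected on all arrays with a median of -0.20, TMEM49 was lower and 0 were higher. TMEM59 was at 0.63 ± 0.13 (adjusted p = 0.0612), the lipid scramblase gene TMEM41B at 0.27 ± 0.37 (adjusted p = 0.84) and TMEM77, now DRAM2, at -0.20 ± 0.12 (adjusted p = 0.501). TMEM173, now STING1, the adaptor of cytosolic DNA sensing, was detected on no array.

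Among 9 enzymes of lipid and glycan metabolism, 6 were detected on all arrays with a median of 0.40. TMEM189, now PEDS1, which makes plasmalogen lipids, was higher at 0.64 ± 0.10 (adjusted p = 0.031), with signals of 1094, 1769 and 1198 on the control IPs and 1859.9, 1287 and 2144 on the Stau1 IPs, and TMEM5 was lower, as above. The phosphoinositide phosphatase gene TMEM55B at 0.70 ± 0.32 (adjusted p = 0.348) and the hyaluronidase gene TMEM2, now CEMIP2, at 0.70 ± 0.16 (adjusted p = 0.0749) did not pass. The 17 ion channels and transporters included 11 detected on all arrays, with a median of 0.10 and a range of -0.35 to 1.21. Of the 17, 0 passed the adjusted threshold in either direction. TMEM66, now SARAF, a regulator of calcium entry, was at 0.10 ± 0.14 (adjusted p = 0.857), the lysosomal channel gene TMEM175 at -0.15 ± 0.17 (adjusted p = 0.804), TMEM22, now SLC35G2, at -0.35 ± 0.14 (adjusted p = 0.295) and the cation channel gene TMEM38B at 0.11 ± 0.11 (adjusted p = 0.756).

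**Figure D4:**
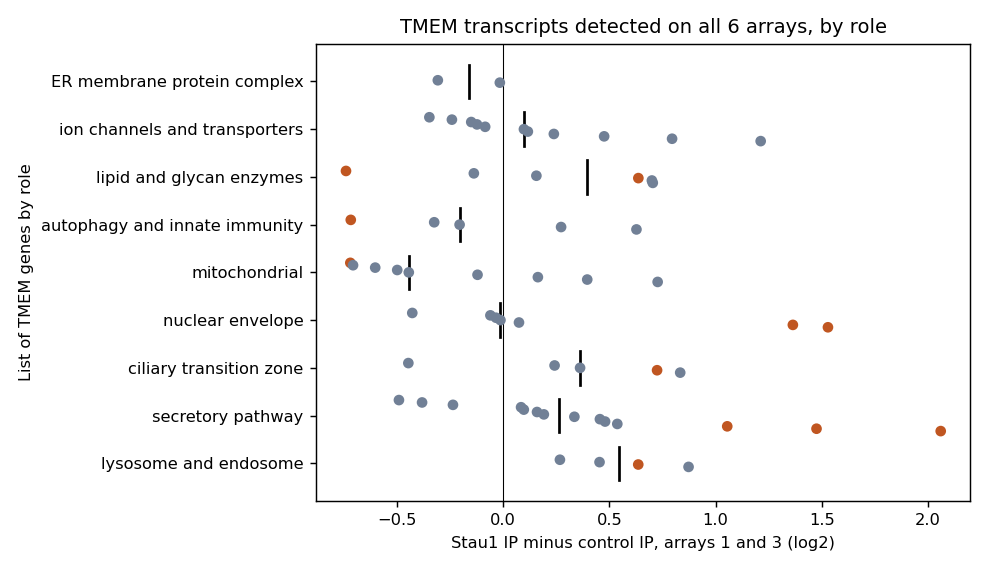
Log2 difference between Stau1 IP and control IP (arrays 1 and 3 of each group) of the TMEM transcripts detected on all 6 arrays, by role, with 1 point per transcript, orange at an adjusted p under 0.05, and a black line at the median of each list. The secretory pathway and nuclear envelope lists hold the points furthest to the right, and the medians run from -0.44 for the mitochondrial list to 0.55 for the lysosome and endosome list.

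Of the 5 brightest TMEM transcripts, TMEM109 alone passed the threshold. After it came TMEM59, with signals of 4745, 6931 and 4667 on the control IPs and 7629, 3117 and 7075 on the Stau1 IPs. TMEM115 followed with 3311, 4696 and 4829.5 on the control IPs and 5767, 6509.8 and 5948 on the Stau1 IPs. Every Stau1 IP of TMEM115 was above every control IP, with a log2 difference by the labels of 0.51 ± 0.14 (SE, n = 3 per group, adjusted p = 0.324). TMEM183A and TMEM183B, the latter a processed copy of the former that RefSeq lists as a pseudogene, cannot be separated with certainty. TMEM183A was at -0.04 ± 0.15 (adjusted p = 0.959) and TMEM183B at -0.10 ± 0.13 (adjusted p = 0.823) without the arrays numbered 2.

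Other membrane and ER transcripts were described in the same way. Of 347 solute carrier (SLC) targets, which also cross membranes several times, 145 were detected on all arrays, with a median log2 difference of 0.27 without the arrays numbered 2, 38 were higher at the adjusted threshold and 5 were lower. Of 30 targets of the ER translocation and glycosylation machinery, 26 were detected on all arrays with a median of -0.05, and 3 were higher and 2 lower. Of 10 p24 cargo receptor targets, which carry proteins between ER and Golgi, 8 were detected on all arrays with a median of 0.45, and 2 were higher and 0 lower. These counts stand beside the same shares of all targets, 3.48% higher and 2.77% lower, or 9.36% and 8.88% of the targets detected on all 6 arrays. Targets of these lists were detected more often than the array as a whole, where 26.1% were detected on all 6 arrays. By the labels the medians were 0.16 for SLC, -0.11 for the ER machinery and 0.14 for p24 targets, with 0 at the adjusted threshold. The difference between the TMEM transcripts and these lists was not tested.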

How the data were processed

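RNA of 3 control and 3 Stau1 IPs was read on 1-colour arrays. The authors deposited the bead signal intensity of each target, its bead standard error (an intensity), bead number (unit score here) and detection p-value, as exported by BeadStudio with no normalization and with the probes of a target combined. In that table some bright targets miss the detection threshold.

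The mean and SD of the negative controls were read from the median signal of the 200 targets nearest a detection p of 0.5 and 0.16. Signals were corrected by normexp, raised by 16, quantile normalized and taken to log2, and all 37879 targets were tested with lmFit and eBayes of limma 3.58.1 in R 4.3.3, with no filter. Bounds were set against the lowest detected signal, or against the target's own signal where that was higher. The members and lists were chosen with earlier results of these data known. Named were the transcripts past the threshold, the 5 brightest and up to 4 detected members per list by mean signal. In arrays simulated with 200 of 37879 targets changed 4-fold, 92.5% were recovered with 6 arrays and 93.5% with 4, with 0 false calls. The simulated log2 spread was the same for every target and no simulated array stood apart. These shares therefore do not give the recovery or the false calls on the real arrays. RefSeq symbols were matched by symbol or older name. Alternatives covered background, normalization, filter, offset, trend, the methods' t-test, a 2-fold threshold, a replicate block and leaving out arrays. Figures were drawn with matplotlib 3.10.9. One further marker of other cell types is not reported here, so that their summary covers only the 7 others.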

Additional observations from a re-analysis of the deposited data

How the results depend on the processing

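The directions of the 9 transcripts past the threshold without the arrays numbered 2 held under every alternative run on the 4 arrays, but their number did not. It was 3 with neqc on its own estimate of the negative controls, 5 without background correction, 3 with the rebuilt variance stabilizing transformation and robust spline, 16 with no between-array normalization and 16 at a 2-fold threshold, and 9 to 15 when 1 more array was left out (15 without control IP 3). By the labels it was 0, with 1 at a 2-fold threshold, 9 with both arrays numbered 2 left out, and 0 to 6 when 1 array was left out (6 without Stau1 IP 2). The 28 higher and 5 lower calls at the adjusted threshold became 3 and 0 with neqc and 0 and 0 with the methods' t-test. They were 35 and 7 without background correction, 26 and 2 with the rebuilt transformation and 35 and 0 with no between-array normalization. The negative-control means that neqc estimated were 157 to 184, against 77.6 to 89.6 in the main setting. The median of the TMEM transcripts without the arrays numbered 2 was 0.45 with no between-array normalization and 0.36 with median centring, where that of all targets moved from -0.08 to 0.16 and 0.07. The range of the median when 1 array was left out was 0.11 to 0.18, and by the labels 0.09 to 0.17.

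For all targets, the counts higher and lower without the arrays numbered 2, 452 and 109, became 230 higher with neqc, 270 and 34 without background correction, 164 and 15 with the rebuilt transformation, 739 and 24 with no between-array normalization, 35 lower with median centring (621 higher), 45 lower at an offset of 50, 62 lower with the methods' t-test, and 873 and 487 at a 2-fold threshold. With 1 more array left out they ran from 413 to 631 higher and from 66 to 355 lower. By the labels, 10 and 13 became 3 and 6 with neqc, 1 and 0 without background correction, 7 lower with shifted log2 values, 1 and 0 with the rebuilt transformation, 4 higher with no between-array normalization, 4 higher with median centring, 2 and 2 at an offset of 50, 27 higher with eBayes trend, 6 higher with the methods' t-test, 76 and 113 at a 2-fold threshold and 452 and 109 without both arrays numbered 2. With 1 array left out they ran from 2 to 268 higher and from 9 to 38 lower.

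The labels give the arrays of both groups the same replicate numbers and nothing else that pairs them. The deviations of arrays that share a number correlated at -0.41, -0.74 and -0.39, but the group means include the arrays numbered 2, so these values do not test the pairing. With the replicate number as a block, the TMEM counts stayed at 9 without the arrays numbered 2 and 0 by the labels, all-target counts by the labels were 6 higher and 13 lower, and the adjusted calls were 20 higher and 2 lower.

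Small differences changed sign. By the labels, both arrays numbered 2 left out took TMEM175 to -0.15, TMEM209 to 0.075, TMEM38B to 0.11, TMEM66 to 0.10 and TMEM64 to 0.85. TMEM31 went to 0.026 with neqc, 0.014 without background correction, 0.025 with the rebuilt transformation and 0.0021 at an offset of 50. TMEM64 went to 0.019, 0.030 and 0.049 under the first 3 of these, 0.028 with no between-array normalization and 0.014 at an offset of 50. TMEM41B went to -0.013 with neqc and -0.027 with median centring, and TMEM85 to 0.0028 with no between-array normalization. On the 4 arrays, no between-array normalization took TMEM14C to 0.057, TMEM175 to 0.11, TMEM183A to 0.036, TMEM43 to 0.11, TMEM48 to 0.25, TMEM77 to 0.13 and TMEM85 to 0.082, and median centring took TMEM175 to 0.023, TMEM43 to 0.024, TMEM48 to 0.17 and TMEM77 to 0.0445. With 1 array left out by the labels, the ranges that crossed 0 were -0.32 to 0.058 for TMEM138, -0.028 to 0.82 for TMEM167B, -0.10 to 0.35 for TMEM175, -0.15 to 0.033 for TMEM183A, -0.14 to 1.03 for TMEM194, -0.19 to 0.54 for TMEM2, -0.57 to 0.27 for TMEM31, -0.23 to 0.11 for TMEM38B, -0.28 to 0.26 for TMEM41B, -0.20 to 0.50 for TMEM59, -0.52 to 0.70 for TMEM64, -0.35 to 0.013 for TMEM66, -0.10 to 0.089 for TMEM85 and -0.092 to 0.58 for TMEM87A. On the 4 arrays they were -0.40 to 0.16 for TMEM14C, -0.038 to 0.52 for TMEM17, -0.36 to 0.058 for TMEM175, -0.22 to 0.14 for TMEM183A, -0.23 to 0.031 for TMEM183B, -0.22 to 0.37 for TMEM209, -0.26 to 0.81 for TMEM41B, -0.094 to 0.03 for TMEM43, -0.24 to 0.12 for TMEM48, -0.073 to 0.27 for TMEM66 and -0.20 to 0.17 for TMEM85. The cause of these changes was not tested. The number of arrays limits the precision, and dim targets carry less than bright ones.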
